A study of Oryza sativa with 6 samples.

Results

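A set of 10 loci of meiotic recombination and crossover formation were followed in young rice (Oryza sativa) panicles of NIL-qigl1HD385, a near-isogenic line, and its partner NIL-qIGL1NIP. They were chosen by locus identifier and make up 10 of the 46732 rows of the deposited table. Their names, SPO11-1, COM1, DMC1A, DMC1B, RAD51C, MER3, ZIP4, HEI10, MSH4 and MSH5, came with that choice, since the table itself lists identifiers without names. The RefSeq gene table of assembly ASM3414082v1 holds no identifier of this kind. It has an entry under 7 of the 10 names, and for 5 of these (SPO11-1, DMC1A, MER3, HEI10 and MSH5) the entry lies on the chromosome that the locus identifier carries. Its ZIP4 entry is on chromosome 8 and the locus studied here on chromosome 1, so that entry is another gene of that name. Its entry for DMC1B is on chromosome 12 and also carries the name DMC1A, whereas the locus named DMC1B here is on chromosome 11.

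The study compared NIL-qigl1HD385 with NIL-qIGL1NIP, lines whose names carry the HD385 or the NIP form of a locus for grain length. Panicles were 8 to 10 cm long, each line had 3 libraries, and the labels give the genotype of both lines as wild type. They do not say which chromosome segments separate the lines, and do not say that libraries of 1 line were made from different plants, so the p-values reflect library-to-library spread, possibly technical. The RNA came from whole young panicles, in which the cells undergoing meiosis are only some of many cell types.

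In meiosis, homologous chromosomes are joined by recombination so that they can be drawn apart evenly. SPO11-1 cuts the DNA, and COM1 is needed for processing the broken ends. DMC1, a recombinase used only in meiosis, carries out the invasion of the homologous chromosome by a single strand, and RAD51C is a repair protein that assists at this step. MER3, ZIP4, HEI10, MSH4 and MSH5 belong to the ZMM group, which turns some of the joined intermediates into crossovers. MER3 is a helicase, ZIP4 a scaffold protein, HEI10 a RING-type protein that marks crossover sites, and MSH4 and MSH5 form a clamp together.

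Levels were deposited as RPKM, reads per kilobase of gene length scaled to the reads of the library, which takes gene length into account when genes are compared. Reads dropped because they match several loci, or merged from antisense neighbours, would still shift the level of a gene. The totals recovered from the steps of these values lay between 43536754 and 52466060 reads. NIL-qigl1HD385 replicate 2 was the most distant library on the first principal component (43.8% of the variance of the 23181 tested loci), and the second component (24.8%) set NIL-qIGL1NIP replicate 3 off from the rest. Results that rest on either library are given below with and without it. Marker genes of the tapetum, of meiocytes and of floral organs could not be looked up, because no source used here pairs their names with the table's identifiers, so the tissue label was not checked against markers other than the 10 genes themselves. All 10 had reads in all 6 libraries.

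Transcripts of all 10 genes were present at low to moderate levels, and the levels spanned 38.3-fold between the highest and the lowest mean. MSH5 stood first with a mean of 13.1 RPKM over the 6 libraries, above 83.8% of all rows of the table. It was followed by SPO11-1 (4.27 RPKM), HEI10 (3.91 RPKM), RAD51C (3.42 RPKM) and MER3 (2.58 RPKM). MSH4 (1.65 RPKM), DMC1A (1.63 RPKM), COM1 (1.46 RPKM) and DMC1B (1.29 RPKM) lay close together, and ZIP4 was last with 0.341 RPKM. Of the 9 pairs of neighbours in this order, only 3 kept it in all 6 libraries, namely MSH5 above SPO11-1, MER3 above MSH4, and DMC1B above ZIP4. SPO11-1 exceeded HEI10 in 3 of 6 libraries and MSH4 exceeded DMC1A in 3 of 6, so these neighbours cannot be ordered beyond their spread. The order of the remaining 4 pairs held in 4 or 5 libraries. DMC1A and DMC1B were ranked as separate loci, although reads of these near-identical copies could be split or dropped, so their places are uncertain.

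**Figure D1:**
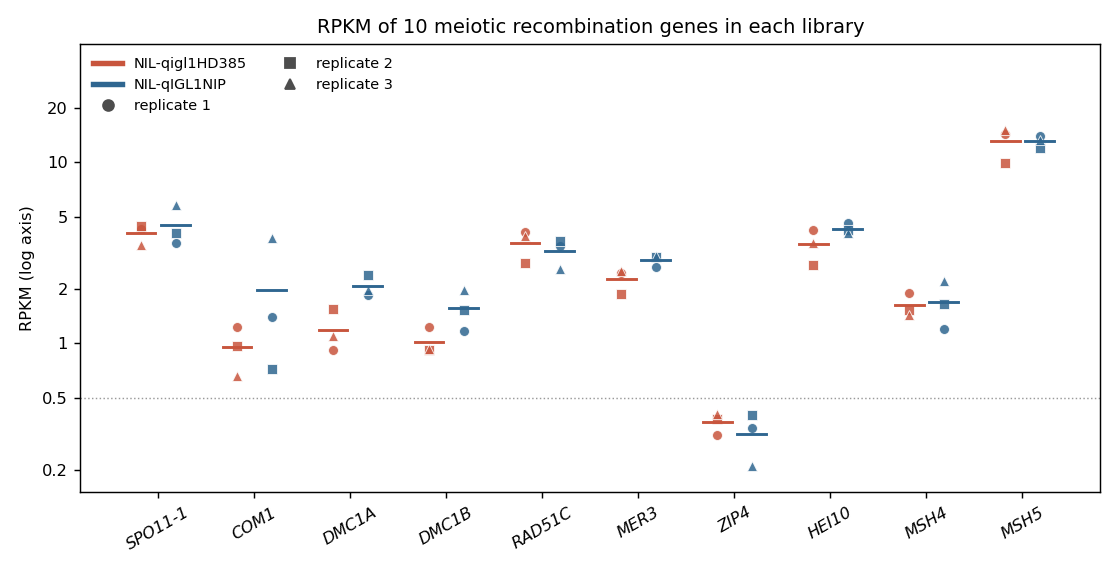
RPKM (log axis) of the 10 genes in each library, NIL-qigl1HD385 left of NIL-qIGL1NIP for each gene; symbols stand for replicates, horizontal bars for the mean of 3 libraries, and the dotted line for the mean of 0.5 RPKM required for testing. MSH5 is highest at 9.93 to 15.1 RPKM, ZIP4 lies below the dotted line, and the 3 values of the lines separate for DMC1A and MER3.

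None of the genes differed between the lines at an adjusted p under 0.05. Of the 10 genes, 9 had a mean of at least 0.5 RPKM and were tested as part of 23181 loci, using limma on log2(RPKM + 0.5) with Benjamini-Hochberg adjustment over all of them, and 0 of these 9 passed. Over all tested loci 0.733% passed, so a count of 0 among 9 is near the background. At an unadjusted p under 0.05 in limma, 1 of the 9 remained (DMC1A), where the share over all tested loci was 17.0%. Limma voom on the recovered reads gave the same counts, 0 adjusted and 1 unadjusted. The fitted change was below 0, that is lower in NIL-qigl1HD385, for 8 of the 9 and above 0 for RAD51C, while 47.1% of all tested loci were below 0. Without NIL-qigl1HD385 replicate 2, MSH4 (0.0037) and MSH5 (0.16) were above 0 as well. Without NIL-qIGL1NIP replicate 3, SPO11-1 (0.08) and MSH4 (0.14) were above 0 and RAD51C (-0.0041) below. With all 6 libraries the median log2 change was -0.27 for the 9 genes and 0.02 for all tested loci, and the median standard error was 0.19 and 0.17. The median of the 9 genes moved to -0.09 (the value of COM1) without NIL-qIGL1NIP replicate 3, where that of all tested loci was -0.02. It was -0.17 (the value of SPO11-1) without NIL-qigl1HD385 replicate 2, where that of all tested loci was 0.06. The size of the joint shift thus depends on these single libraries. For 7 of the 9 genes the 95% interval lay within 1 unit of no change on the log2(RPKM + 0.5) scale, and for COM1 and DMC1A it reached beyond. At low levels a unit of this scale is more than a 2-fold change in RPKM. In voom on the recovered reads, with no 0.5 RPKM added, the interval of DMC1B also reached beyond 1 log2 unit (-1.21 to 0.08). In bulk tissue, fewer cells of a type and less RNA per cell cannot be told apart, so a level here says nothing on its own about the number of meiotic cells.

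**Figure D2:**
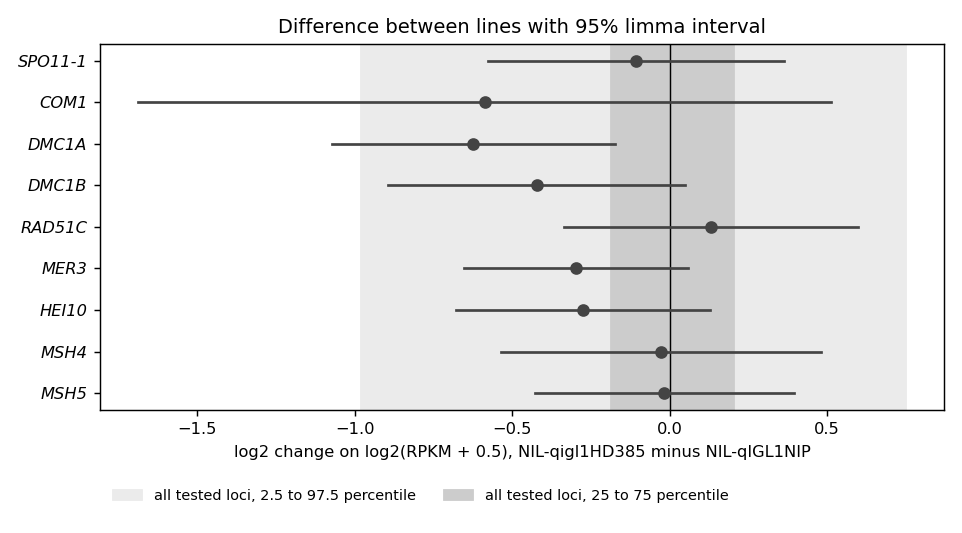
Log2 change of the 9 tested genes on the log2(RPKM + 0.5) scale, NIL-qigl1HD385 minus NIL-qIGL1NIP, with the 95% interval from limma as a line; grey bands show where the central 50% and 95% of all tested loci lie. The interval leaves out 0 only for DMC1A, whose adjusted p of 0.19 does not pass, and is widest for COM1.

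SPO11-1 (LOC_Os03g54091), which makes the breaks, had 4.26, 4.45 and 3.48 RPKM in NIL-qigl1HD385 replicates 1, 2 and 3, against 3.56, 4.07 and 5.81 RPKM in NIL-qIGL1NIP. The lines overlapped, and the highest value was in NIL-qIGL1NIP replicate 3 and the lowest in NIL-qigl1HD385 replicate 3. The log2 change was -0.11 (SE 0.20, 95% interval -0.58 to 0.36, adjusted p = 0.81 in limma). Without NIL-qIGL1NIP replicate 3 it was 0.08, so its sign rests on that library.

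COM1 (LOC_Os06g41050), which acts on the broken ends, varied most of the 10 genes. It had 1.23, 0.970 and 0.661 RPKM in NIL-qigl1HD385, against 1.39, 0.724 and 3.81 RPKM in NIL-qIGL1NIP. A single library, NIL-qIGL1NIP replicate 3, held 368 of its reads, where the other 5 libraries held 66 to 162, and its RPKM there was 2.74 times the next highest. Among the 23181 tested loci, 335 (1.45%) had a gap at least as large between the highest and the second library, measured as a ratio of RPKM + 0.5; this comparison was chosen after the value had been seen. COM1 averaged 0.952 ± 0.283 RPKM in NIL-qigl1HD385, against 1.97 ± 1.62 RPKM in NIL-qIGL1NIP (SD, n = 3 each), and the log2 change of -0.59 had a standard error of 0.46 (adjusted p = 0.55 in limma). Without that library the NIL-qIGL1NIP mean was 1.06 RPKM and the log2 change -0.09.

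DMC1A (LOC_Os12g04980) had the fitted change farthest from 0, although that of COM1 (-0.59) lay within its standard error of it. COM1 was farther from 0 without NIL-qIGL1NIP replicate 2 (-0.99 for COM1 and -0.54 for DMC1A) and without NIL-qigl1HD385 replicate 1 (-0.72 and -0.51). The DMC1A values were 0.913, 1.54 and 1.10 RPKM in NIL-qigl1HD385, against 1.85, 2.39 and 1.97 RPKM in NIL-qIGL1NIP. All 3 values of NIL-qigl1HD385 lay below all 3 of NIL-qIGL1NIP, with means of 1.18 ± 0.322 and 2.07 ± 0.281 RPKM (SD, n = 3 each). The values rest on 60 to 104 reads in NIL-qigl1HD385 and 120 to 158 reads in NIL-qIGL1NIP. The log2 change was -0.62 (SE 0.19, 95% interval -1.07 to -0.17), with an adjusted p = 0.19 in limma, so the gene did not pass. Leaving out each library in turn gave -0.77 to -0.51. On recovered reads, with no 0.5 RPKM added, voom gave -0.82 (adjusted p = 0.19). Over the 13 alternatives that tested it, the adjusted p was 0.19 to 0.37 in limma.

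DMC1B (LOC_Os11g04954), the second copy of the recombinase gene, had 1.22, 0.916 and 0.925 RPKM in NIL-qigl1HD385, against 1.17, 1.52 and 1.97 RPKM in NIL-qIGL1NIP. Here NIL-qIGL1NIP replicate 1 fell between the NIL-qigl1HD385 values, so the lines overlapped. The log2 change was -0.42 (SE 0.20, 95% interval -0.89 to 0.05, adjusted p = 0.34 in limma), and -0.28 without NIL-qIGL1NIP replicate 3. DMC1A and DMC1B are near-identical copies, and the authors' counting could split or drop reads that match both, so the level of each copy is uncertain. The ratio of DMC1A to DMC1B was 0.747, 1.68 and 1.19 in NIL-qigl1HD385, against 1.58, 1.57 and 1.00 in NIL-qIGL1NIP, with no separation of the lines.

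The sum of both copies depends little on how reads were divided between them, as the recovered gene lengths are 1398 and 1514 bases, although it still lacks any reads that were dropped. It was 2.13, 2.45 and 2.02 RPKM in NIL-qigl1HD385, against 3.02, 3.91 and 3.94 RPKM in NIL-qIGL1NIP. The lines did not overlap in the sum, with means of 2.20 ± 0.225 and 3.63 ± 0.522 RPKM (SD, n = 3 each). It was not tested, and an absence of overlap in either direction was seen for 26.5% of all tested loci.

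**Figure D3:**
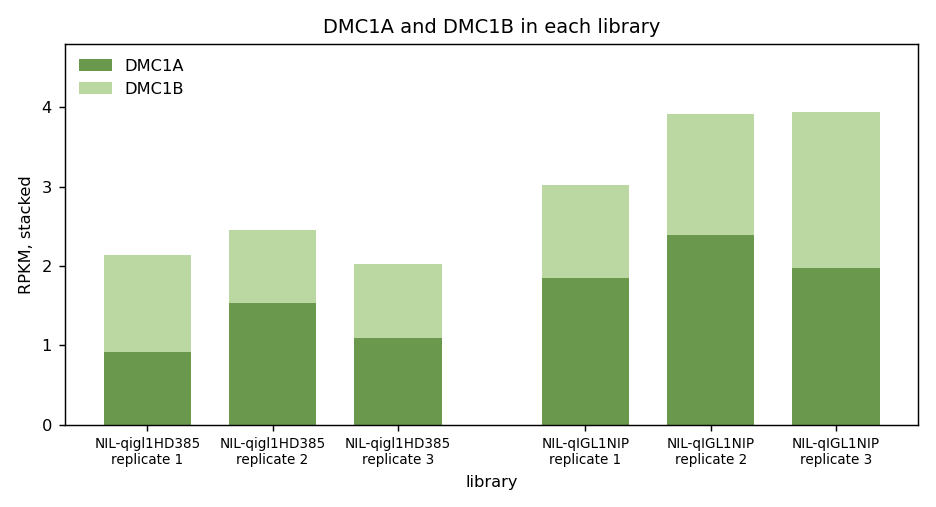
RPKM of DMC1A (dark) and DMC1B (light), stacked, in each of the 6 libraries, NIL-qigl1HD385 on the left. The stacks reach 2.02 to 2.45 RPKM in NIL-qigl1HD385, against 3.02 to 3.94 RPKM in NIL-qIGL1NIP, while the split between the copies differs from library to library.

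RAD51C (LOC_Os01g39630), which assists in strand exchange, was the tested gene whose fitted change was above 0. It had 4.12, 2.77 and 3.91 RPKM in NIL-qigl1HD385, against 3.44, 3.69 and 2.57 RPKM in NIL-qIGL1NIP. The lines overlapped, and the lowest value was in NIL-qIGL1NIP replicate 3, the library in which SPO11-1, COM1 and DMC1B were highest. The log2 change was 0.13 (SE 0.19, 95% interval -0.33 to 0.60, adjusted p = 0.76 in limma), and -0.0041 without that library, on which its sign rests. The ratio of the DMC1 sum to RAD51C ranged from 0.518 to 0.886 in NIL-qigl1HD385 and from 0.879 to 1.54 in NIL-qIGL1NIP, and the ranges overlapped slightly.

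Among the crossover genes, MER3 (LOC_Os02g40450) had 2.43, 1.86 and 2.51 RPKM in NIL-qigl1HD385, against 2.62, 3.01 and 3.03 RPKM in NIL-qIGL1NIP. All 3 NIL-qigl1HD385 values were below those of NIL-qIGL1NIP, by a small margin at the nearest pair. With DMC1A this made 2 of the 9 tested genes that were lower without overlap, where 10.3% of all tested loci were. A higher level without overlap was seen for 0 of the 9. In either direction 26.5% of all tested loci did not overlap, so a count of 2 among 9 is near that share. The MER3 means were 2.27 ± 0.354 and 2.89 ± 0.228 RPKM (SD, n = 3 each), and the log2 change was -0.30 (SE 0.15, 95% interval -0.65 to 0.06, adjusted p = 0.36 in limma). Without NIL-qigl1HD385 replicate 2 the change was -0.19.

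HEI10 (LOC_Os02g13810) had 4.23, 2.71 and 3.59 RPKM in NIL-qigl1HD385, against 4.62, 4.23 and 4.05 RPKM in NIL-qIGL1NIP. The lines overlapped only through NIL-qigl1HD385 replicate 1, and replicate 2 of that line was lowest. The log2 change was -0.27 (SE 0.17, 95% interval -0.68 to 0.13, adjusted p = 0.44 in limma), and -0.12 without NIL-qigl1HD385 replicate 2. The ratio of HEI10 to MER3 was 1.43 to 1.74 in NIL-qigl1HD385, against 1.34 to 1.76 in NIL-qIGL1NIP. Both genes had their lowest value in NIL-qigl1HD385 replicate 2, at 2.71 RPKM for HEI10 and 1.86 RPKM for MER3.

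MSH4 (LOC_Os07g30240) and MSH5 (LOC_Os05g41880), whose proteins act as a pair, had the fitted changes closest to 0. MSH4 had 1.90, 1.52 and 1.43 RPKM in NIL-qigl1HD385, against 1.20, 1.65 and 2.22 RPKM in NIL-qIGL1NIP. MSH5 had 14.2, 9.93 and 15.1 RPKM in NIL-qigl1HD385, against 14.0, 12.0 and 13.2 RPKM in NIL-qIGL1NIP. The lines overlapped in both genes, and MSH5 was lowest in NIL-qigl1HD385 replicate 2. The log2 change was -0.03 for MSH4 (SE 0.21, 95% interval -0.54 to 0.48, adjusted p = 0.96 in limma) and -0.02 for MSH5 (SE 0.17, 95% interval -0.43 to 0.39, adjusted p = 0.97 in limma). The sign of either changes with the library left out, and the MSH5 value was 0.16 without NIL-qigl1HD385 replicate 2.

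In RPKM, MSH5 exceeded MSH4 in all 6 libraries. The ratio was 7.48, 6.54 and 10.6 in NIL-qigl1HD385, against 11.7, 7.27 and 5.96 in NIL-qIGL1NIP. It averaged 8.20 ± 2.11 in NIL-qigl1HD385 and 8.32 ± 3.02 in NIL-qIGL1NIP (SD, n = 3 each), a difference smaller than either SD.

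ZIP4 (LOC_Os01g66690) fell below the mean of 0.5 RPKM needed for testing. It had 0.312, 0.383 and 0.404 RPKM in NIL-qigl1HD385, against 0.340, 0.399 and 0.209 RPKM in NIL-qIGL1NIP. These values rest on 42 to 53 reads in NIL-qigl1HD385 and 26 to 54 reads in NIL-qIGL1NIP. The lines overlapped. With no filter on low values, limma gave ZIP4 a log2 change of 0.09 with an SE of 0.12 (adjusted p = 0.77).

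The median SD of log2(RPKM + 0.5) within a line was 0.27 for the 9 tested genes and 0.17 for all tested loci in NIL-qigl1HD385, and 0.24 and 0.19 in NIL-qIGL1NIP. The SD lay above the median of all tested loci for 6 of the 9 genes in NIL-qigl1HD385 and for 5 of the 9 in NIL-qIGL1NIP. All tested loci were not matched to these genes for level, and counting error is larger at low read numbers. The medians alone therefore do not show that these genes vary more than others of their level. Without NIL-qigl1HD385 replicate 2 the medians in that line were 0.15 for the 9 genes and 0.11 for all tested loci. Without NIL-qIGL1NIP replicate 3 they were 0.16 and 0.09 in the other line. The spread of single genes was also set beside the counting error that their read numbers give. MSH5 had 899 to 1272 reads in NIL-qigl1HD385, and its coefficient of variation was 21.1% where counting error alone gives 2.96%. Replicate 2 stood apart there, at 9.93 RPKM against 14.2 and 15.1 RPKM in replicates 1 and 3. In NIL-qIGL1NIP the coefficient of variation of MSH5 was 7.90%, against 2.93% from counting. ZIP4, which is not among the 9 tested genes, varied by 13.2% in NIL-qigl1HD385, where counting error alone gives 14.3%. For COM1 in NIL-qIGL1NIP the coefficient of variation was 82.2% against 7.05% from counting. Replicate 3 stood apart there, at 3.81 RPKM against 1.39 and 0.724 RPKM in replicates 1 and 2. In NIL-qigl1HD385 the coefficient of variation of COM1 was 29.7%, against 10.0% from counting.

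NIL-qIGL1NIP replicate 3 held the highest value of 5 of the 10 genes (SPO11-1, COM1, DMC1B, MER3 and MSH4) and the lowest of RAD51C and ZIP4. Over all tested loci it held the highest value of 17.7% and the lowest of 34.8%. NIL-qigl1HD385 replicate 2 held the lowest value of 4 genes (DMC1B, MER3, HEI10 and MSH5) and the highest of 0. Over all tested loci it held the lowest value of 31.9% and the highest of 19.7%, so its 4 of 10 lowest values are near the background. The summed RPKM of the 10 genes was 34.8, 27.1 and 33.1 in NIL-qigl1HD385, against 34.2, 33.6 and 38.9 in NIL-qIGL1NIP, so the extremes of the sum lay in those same libraries and the lines overlapped. Whether the panicles of these libraries differed in stage was not tested.

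**Figure D4:**
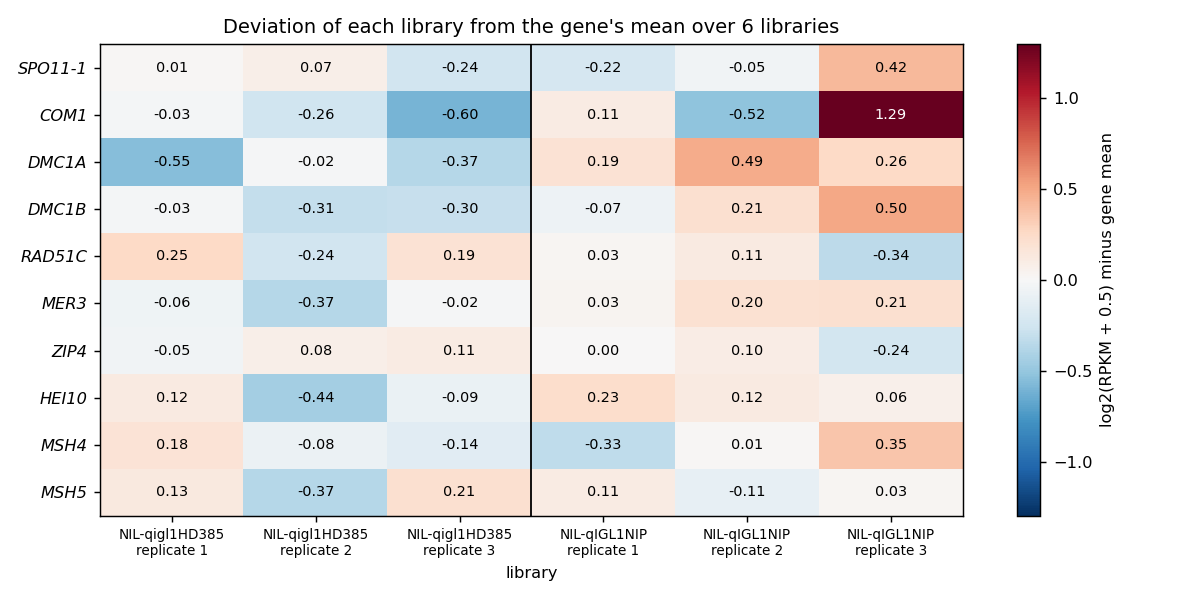
Deviation of log2(RPKM + 0.5) in each library (columns) from the mean of each gene over the 6 libraries (rows), red above and blue below the mean; the vertical line separates NIL-qigl1HD385 on the left from NIL-qIGL1NIP. COM1 in NIL-qIGL1NIP replicate 3, at 1.29, is the farthest from its mean, and RAD51C and ZIP4 are below theirs in that library.

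Near-isogenic lines can differ in chromosome segments, so the loci beside each gene were examined, taking the 10 tested loci on each side in identifier order. Around 9 of the 10 genes, 0 of the 20 neighbours passed an adjusted p under 0.05 in limma, but single neighbours of some of them had large fitted changes. The second locus after RAD51C had a mean of 0.018 RPKM in NIL-qigl1HD385, against 24.98 RPKM in NIL-qIGL1NIP, a log2 change of -3.50, and the locus directly after ZIP4 had 16.8 against 47.0 RPKM, a log2 change of -1.92. Neither fitted change is the one that its means give on this scale. That requires unequal libraries within NIL-qIGL1NIP for the first locus and within NIL-qigl1HD385 for the second. These means therefore need not hold for each library of a line. Around MER3, 4 of 20 passed, 1 higher and 3 lower in NIL-qigl1HD385, against 0.733% of all tested loci. All 4 lay on the side of lower identifiers, 5 to 9 tested loci from MER3. The strongest of them had a mean of 0.024 RPKM in NIL-qigl1HD385, against 23.8 RPKM in NIL-qIGL1NIP, a log2 change of -5.53, and the one that was higher had 8.64 and 2.44 RPKM. The table does not name these loci. Large fitted changes that did not pass lay on both sides of MER3. Of its 20 neighbours, 10 had a change outside the central 95% of all tested loci (-0.98 to 0.75), 7 of them at lower and 3 at higher identifiers, and 6 of the 10 did not pass. Among these 6, the change of the locus directly before MER3 was -1.29 (4.79 RPKM in NIL-qigl1HD385, against 11.6 RPKM in NIL-qIGL1NIP), and that of the ninth locus after it was 1.94 (2.24 against 0.085 RPKM). MER3 itself did not pass. Whether MER3 lies inside a segment that differs between the lines was not tested.

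**Figure D5:**
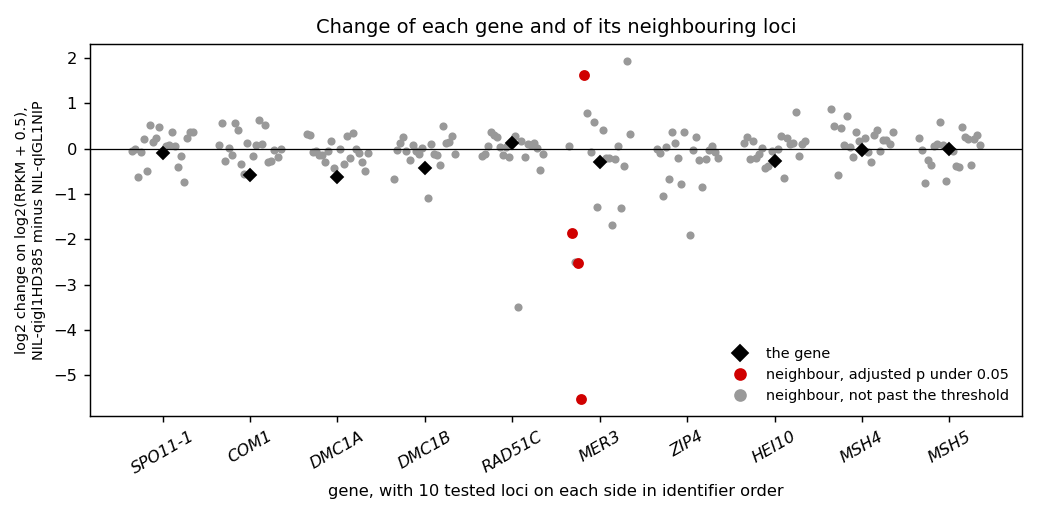
Log2 change on the log2(RPKM + 0.5) scale, NIL-qigl1HD385 minus NIL-qIGL1NIP, of each gene (black diamonds; ZIP4 was not tested and has none) and of the 10 tested loci on either side in identifier order (circles, red where the adjusted p is under 0.05). The 4 red circles all stand beside MER3, while 0 neighbours of the other 9 genes passed; large uncalled changes stand on both sides of MER3 and beside RAD51C and ZIP4.

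Other genes of meiotic recombination, such as the strand exchange partners of DMC1 and the later crossover genes, were listed by name (33 genes). The RefSeq table has entries under 11 of these names but pairs none with an identifier of the deposited table, so they were not analysed here.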

How the data were processed

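RNA-seq of 6 libraries, 3 per line, was used as deposited. The authors' table gives RPKM per locus. The submitters' processing notes list edgeR 3.12.1, Subread 1.5.1, featureCounts and Trimmomatic 0.36 without saying what each did. For the aligner, the genome build and the strand setting, nothing is stated in the sources used here, and unstranded counting would merge reads of antisense neighbours.

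Loci with a mean of at least 0.5 RPKM (23181) were tested two-sided in limma 3.58.1 (R 4.3.3, variance trend, no covariate), as log2(RPKM + 0.5), and p-values were adjusted over all of them by the Benjamini-Hochberg method, with a call at 0.05. Fold changes on this scale understate those of low loci. Library totals, gene lengths and reads were recovered with Python 3.11.15 from the steps of the RPKM values: 100% of values above 0 were whole within 0.003 reads plus 2e-08 of the value. How read pairs were counted is not given. Counting errors cover counting only. The recovery and the limma test were tested on simulated data. The 10 genes, all of them named, and the lists were chosen with earlier results of these data known. Sequences of these genes were not used here.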

Additional observations from a re-analysis of the deposited data

How the results depend on the processing

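None of the genes passed an adjusted p under 0.05 in any of the 14 alternative fits (pseudocounts of 0.1 and 1, no filter, a mean of at least 2 RPKM, which tests 5 of the genes, median-ratio scaling, quantile normalization, the replicate block, voom, and each library left out). The lowest adjusted p was 0.19, for DMC1A with a pseudocount of 1 (limma). In the fits without a library left out, all 9 genes kept their sign where they were tested. With a library left out, the log2 change changed sign for SPO11-1 (-0.24 to 0.078), RAD51C (-0.0041 to 0.29), MSH4 (-0.20 to 0.14) and MSH5 (-0.13 to 0.16), and that of COM1 ranged from -0.99 to -0.09. The 170 loci called over the whole table became 94 with a mean of at least 2 RPKM, 46 with the replicate block and 82 to 111 with a library left out; in the other 6 fits the count stayed within 1.5 times of 170. The labels do not pair libraries by number, and deviations of same-numbered libraries from their line means correlated across loci at -0.28, -0.25 and -0.41. The median SD within a line ranged from 0.15 to 0.25 in NIL-qigl1HD385 and from 0.16 to 0.26 in NIL-qIGL1NIP with a library left out. With 25 tested loci on each side, the called neighbours were the same number, 4, all beside MER3. With a library left out, the mean ratio of DMC1A to DMC1B ranged from 0.966 to 1.43 in NIL-qigl1HD385 and from 1.28 to 1.58 in NIL-qIGL1NIP, that of MSH5 to MSH4 from 7.01 to 9.03 and from 6.61 to 9.49, and the COM1 mean in NIL-qIGL1NIP from 1.06 to 2.60 RPKM. Depth limits ZIP4 most, with 26 to 54 reads in a library.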
